A study of Homo sapiens with 10 samples.

Results

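The metallothionein genes MT1E, MT1F, MT1G, MT1M, MT1X and MT2A and the zinc exporter gene SLC30A1 were followed in human liver cancer cell lines. They are 7 of the 20030 genes in the deposited expression table and were taken by gene symbol. The lines are Huh7, PLC and 97H, spelled as in the labels, and all are described there as liver cancer lines. PLC and 97H were given the combination of a CDK4/6 inhibitor and an XPO1 inhibitor, the XPO1 inhibitor alone (KPT330 in the titles), the CDK4/6 inhibitor alone, or vehicle as control. Huh7 was given the CDK4/6 inhibitor or vehicle. Each line and treatment is 1 library, 10 in all, so the line is the replicate. Doses, times, batches and the name of the CDK4/6 inhibitor are not stated in the labels. Nothing states that the libraries of a line came from separate cultures, so p-values measure the spread between these libraries. CDK4 and CDK6 are kinases of the G1 phase of the cell cycle, and XPO1 is an exporter of proteins and RNAs from the nucleus. Levels are FPKM, fragments scaled to transcript length and to the mapped fragments of a library, as computed by the authors. Between 14033 and 15264 genes were above 0 FPKM per library, and the total depth is unknown because the table holds no counts.

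Metallothioneins are small, cysteine-rich proteins that bind zinc and copper in the cell. When free zinc rises, the transcription factor MTF1 binds metal response elements upstream of the metallothionein genes and of SLC30A1, which moves zinc out of the cytosol across the plasma membrane. The liver is a main site of metallothionein synthesis, glucocorticoids and oxidative stress also induce these genes there, and metallothionein is often lower in liver cancer than in the surrounding liver.

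The 6 metallothionein genes lie together on chromosome 16 of GRCh38, at 56608199 to 56609497 for MT2A, 56625475 to 56627112 for MT1E, 56632233 to 56633986 for MT1M, 56657694 to 56660698 for MT1F, 56666731 to 56668065 for MT1G and 56682424 to 56684196 for MT1X in GENCODE 29. MT1G is on the minus strand and the other 5 are on the plus strand. Each has 3 exons. The transcripts matched to 5 of them code for 61 amino acids, of which 20 are cysteines. The MT1F transcript matched here has 44 codons. SLC30A1 has 2 exons, lies on the minus strand of chromosome 1 at 211571568 to 211578742, and codes for 507 amino acids. The sequences just upstream of MT2A, MT1X and SLC30A1 are shown because metal response elements upstream of the start are the known route of zinc control. They are the 250 bases before the transcript start given by RefSeq on GRCh38.p14, at chr16:56608334-56608583 (plus strand), chr16:56682220-56682469 (plus strand) and chr1:211579162-211579411 (minus strand), and capitals mark each match to the metal response element core, TGCACNC or TGCGCNC on either strand.
MT2A: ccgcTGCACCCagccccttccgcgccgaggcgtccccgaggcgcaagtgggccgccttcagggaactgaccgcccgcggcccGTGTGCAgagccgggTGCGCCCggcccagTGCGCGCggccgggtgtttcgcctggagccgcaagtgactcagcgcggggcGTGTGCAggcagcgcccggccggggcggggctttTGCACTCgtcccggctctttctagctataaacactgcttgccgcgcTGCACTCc
MT1X: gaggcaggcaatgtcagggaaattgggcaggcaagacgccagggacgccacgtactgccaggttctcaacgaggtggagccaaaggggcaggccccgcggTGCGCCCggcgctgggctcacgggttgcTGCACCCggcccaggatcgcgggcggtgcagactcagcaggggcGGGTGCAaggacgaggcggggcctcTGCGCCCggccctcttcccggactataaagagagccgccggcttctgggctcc
SLC30A1: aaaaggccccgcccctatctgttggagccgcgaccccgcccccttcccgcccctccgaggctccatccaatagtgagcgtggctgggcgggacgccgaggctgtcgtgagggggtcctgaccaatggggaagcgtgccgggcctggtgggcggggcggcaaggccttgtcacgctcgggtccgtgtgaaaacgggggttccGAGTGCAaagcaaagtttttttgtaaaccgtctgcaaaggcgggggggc

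MT2A held 7 core matches, MT1X 4 and SLC30A1 1. Of 35116 promoters of this length in the RefSeq table, 24.8% held at least 1 core match on either strand, 0.370% at least 4 and 0.0313% at least 7. Both metallothionein windows also held TATAAA on the gene's own strand, at -29 to -24 in MT2A and at -30 to -25 in MT1X, counted from the transcript start. The share of all promoters with TATAAA was 6.80%, and the SLC30A1 window held none. The GC content of the windows was 73.2% for MT2A, 70.0% for MT1X and 66.4% for SLC30A1, against a median of 58.0% for all promoters. A match is a match of letters and no evidence of binding. RefSeq places the starts of MT2A and MT1X downstream of the GENCODE 29 starts and that of SLC30A1 upstream, so all 3 windows depend on the annotation. MT1E, MT1F, MT1G and MT1M are named without a promoter sequence.

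**Figure D1:**
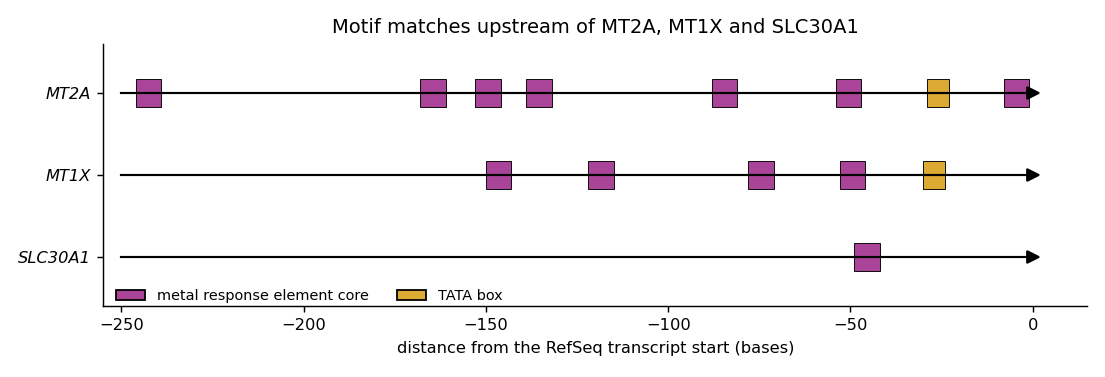
Matches to the metal response element core (purple, either strand) and to TATAAA (yellow, the gene's strand) in the 250 bases upstream of MT2A, MT1X and SLC30A1, plotted by distance in bases from the RefSeq transcript start. MT2A has 7 core matches, MT1X 4 and SLC30A1 1, and both metallothioneins have TATAAA just upstream of the start.

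The coding sequences of the metallothioneins are close to identical, which bears on how far reads can be told apart. Among the 5 genes with 61 codons, the 10 pairs shared 89.6% to 95.1% of 183 coding bases. MT1X and MT2A, the pair with the highest levels in PLC, shared 169 of 183 bases (92.3%). Their coding sequences are shown without the stop codon, with capitals at the bases that differ.
MT1X: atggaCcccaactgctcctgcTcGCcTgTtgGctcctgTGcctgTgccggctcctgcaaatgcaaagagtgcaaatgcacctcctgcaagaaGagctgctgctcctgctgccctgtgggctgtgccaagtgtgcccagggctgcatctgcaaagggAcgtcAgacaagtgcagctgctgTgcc
MT2A: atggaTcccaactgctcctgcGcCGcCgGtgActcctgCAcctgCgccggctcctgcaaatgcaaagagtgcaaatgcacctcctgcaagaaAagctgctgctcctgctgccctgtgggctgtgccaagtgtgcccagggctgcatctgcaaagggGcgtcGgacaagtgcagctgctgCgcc

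Of the 50-base windows of each transcript, 45.1% in MT1X, 20.2% in MT1G, 7.05% in MT1M, 5.34% in MT1E, 4.88% in MT2A and 0.273% in MT1F also occurred in a transcript of another gene, and none of SLC30A1 did. At 100 bases 19.1% of MT1X windows were shared, all with the annotated gene AC026461.1, and none of the other 6 members. Read length and the treatment of reads with several matches are not stated in the labels, so the levels of MT1X and MT1G are less certain than those of MT2A and SLC30A1. The MT2A share was taken over 786 bases from the GENCODE 29 start and may be larger over the 401 bases from the RefSeq start. That of MT1F rests on the matched transcript of 44 codons.

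Metallothionein level followed the cell line. All 6 metallothioneins were higher in both Huh7 libraries than in any of the 8 PLC and 97H libraries. PLC had mainly MT1X and MT2A, and 97H had mainly MT2A. Both Huh7 libraries lay above all 8 others for 12.2% of the 10477 genes that averaged 1 FPKM or more across libraries, the genes used for all tests and shares below. MT1E, MT1F, MT1G and MT1M reached that mean through Huh7 alone and had to be high there, so their place in a count is no support. Of the 3 members that averaged 1 FPKM or more without Huh7, MT1X and MT2A lay above all 8 others and SLC30A1 did not. Both Huh7 libraries were at least 10 times the highest of the 8 others for 1.2% of the tested genes, and for none of these 3 members. These counts describe the libraries, since a line has no replicate of a treatment and lines were not tested against each other. In such bulk samples fewer expressing cells and less RNA per cell cannot be told apart.

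MT1G, a metal-inducible isoform, had 183 FPKM with the CDK4/6 inhibitor and 179 FPKM in the control of Huh7. In PLC it had 0 FPKM with the combination, the XPO1 inhibitor and the CDK4/6 inhibitor and 0.703 FPKM in the control. In 97H it had 0 FPKM with the combination and the XPO1 inhibitor, 1.08 FPKM with the CDK4/6 inhibitor and 0 FPKM in the control. MT1G was thus high in both Huh7 libraries and listed at 0 in 6 of the other 8. The lower Huh7 library was at 166 times the highest of the others, a ratio that divides by a single value of 1.08 FPKM.

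MT1E had 32.9 FPKM with the CDK4/6 inhibitor and 54.9 FPKM in the control of Huh7. In PLC it had 0 FPKM with the combination, 0.0928 FPKM with the XPO1 inhibitor, 0.169 FPKM with the CDK4/6 inhibitor and 0 FPKM in the control, and in 97H it lay between 0.0888 and 0.101 FPKM in all 4 libraries. The lower Huh7 library was 195 times the highest of the other 8, which had 0.169 FPKM. MT1F had 54.0 FPKM with the CDK4/6 inhibitor and 71.1 FPKM in the control of Huh7, 0.729, 0.246, 0.446 and 0 FPKM in PLC with the combination, the XPO1 inhibitor, the CDK4/6 inhibitor and vehicle, and 0, 0, 0.532 and 0.255 FPKM in 97H in the same order. Its lower Huh7 library was 74.1 times the highest of the others. MT1M had 30.0 FPKM with the CDK4/6 inhibitor and 41.3 FPKM in the control of Huh7, and was listed at 0 in 7 of the other 8 libraries, the 97H control at 0.582 FPKM being the exception. Huh7 did not overlap the other lines for any of these 3 genes, while PLC and 97H overlapped for each of them. Values under 1 FPKM rest on few reads, and since the table holds no counts, no counting interval can be given for them. The ratios for MT1E and MT1F divide by such values. Both genes had to be high in Huh7 to be among the tested genes, so the ratios are no support.

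MT1X, which is expressed in many tissues, separated all 3 lines. It had 246 FPKM with the CDK4/6 inhibitor and 221 FPKM in the control of Huh7. In PLC it had 32.3 FPKM with the combination, 27.2 FPKM with the XPO1 inhibitor, 49.8 FPKM with the CDK4/6 inhibitor and 57.7 FPKM in the control. In 97H it had 2.38 FPKM with the combination, 1.37 FPKM with the XPO1 inhibitor, 5.73 FPKM with the CDK4/6 inhibitor and 1.46 FPKM in the control. No library of one line overlapped another line, and the share of tested genes with all 3 lines apart in this order was not computed. All 4 PLC libraries lay above all 4 97H libraries for MT1X and not for MT2A or SLC30A1, against 27.1% of all tested genes. All 4 97H libraries lay above all 4 PLC libraries for 16.5% of all tested genes and for none of these 3 members.

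MT2A, usually the most abundant metallothionein mRNA in human cells, was the highest metallothionein in 9 of the 10 libraries. It had 428 FPKM with the CDK4/6 inhibitor and 603 FPKM in the control of Huh7. In PLC it had 76.6 FPKM with the combination, 136 FPKM with the XPO1 inhibitor, 41.6 FPKM with the CDK4/6 inhibitor and 71.9 FPKM in the control. In 97H it had 34.1 FPKM with the combination, 25.7 FPKM with the XPO1 inhibitor, 42.5 FPKM with the CDK4/6 inhibitor and 20.8 FPKM in the control. Huh7 stood 3.14-fold or more above every other library. PLC and 97H overlapped, because the PLC library with the CDK4/6 inhibitor lay just under the 97H library with the same inhibitor. In the PLC library with the CDK4/6 inhibitor MT1X was the higher of the pair.

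SLC30A1, the zinc exporter, showed no such step between lines. It had 12.9 FPKM with the CDK4/6 inhibitor and 9.24 FPKM in the control of Huh7. In PLC it had 16.8 FPKM with the combination, 8.47 FPKM with the XPO1 inhibitor, 12.5 FPKM with the CDK4/6 inhibitor and 10.1 FPKM in the control. In 97H it had 14.8 FPKM with the combination, 28.7 FPKM with the XPO1 inhibitor, 12.5 FPKM with the CDK4/6 inhibitor and 19.9 FPKM in the control. The 3 lines overlapped, and the lower Huh7 library was 0.322 times the highest of the others.

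**Figure D2:**
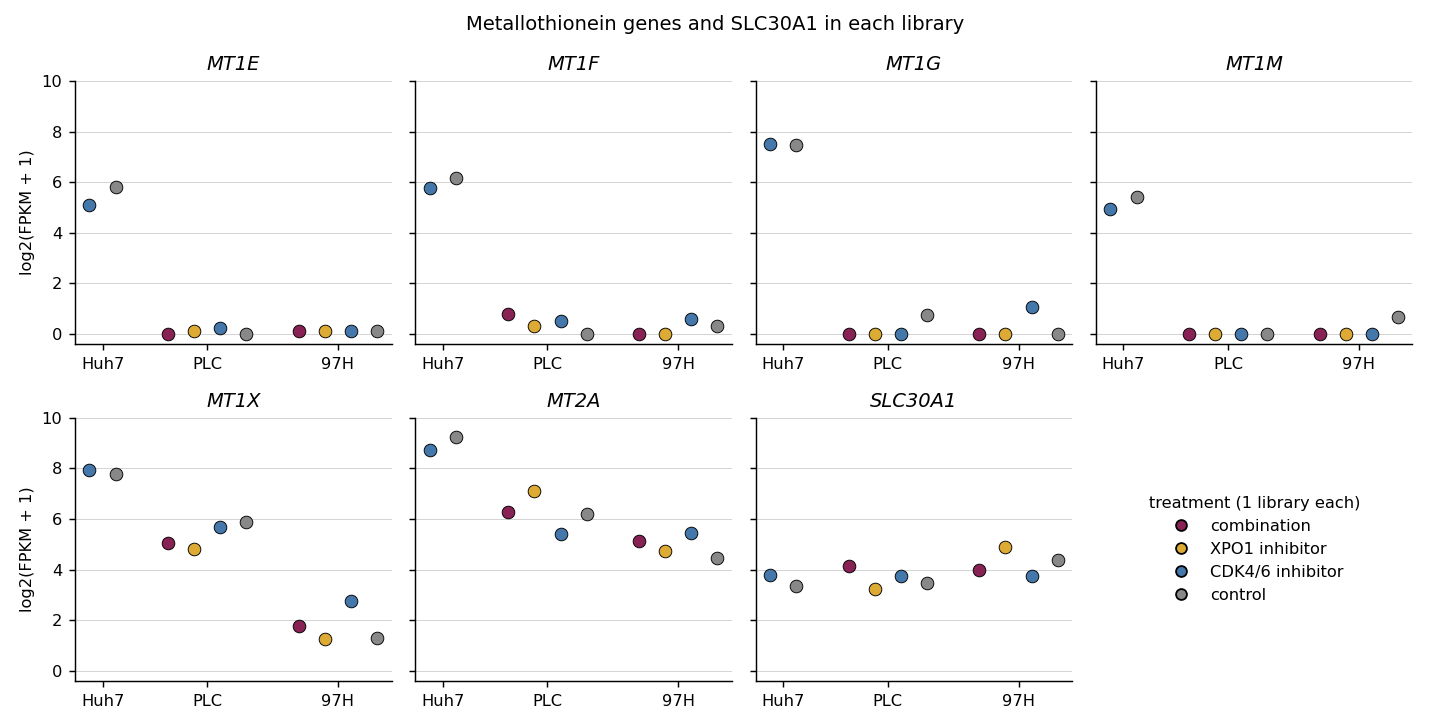
Level of each member in each of the 10 libraries on a log2(FPKM + 1) scale, grouped by cell line, with 1 point per library coloured by treatment. The 6 metallothioneins are highest in Huh7, MT1E, MT1F, MT1G and MT1M lie near 0 in PLC and 97H, and SLC30A1 lies between 8.47 and 28.7 FPKM in all lines.

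The summed level of the 6 metallothioneins fell into 3 ranges that did not overlap. It was 974 FPKM with the CDK4/6 inhibitor and 1169 FPKM in the control of Huh7. In PLC it was 110 FPKM with the combination, 164 FPKM with the XPO1 inhibitor, 92.1 FPKM with the CDK4/6 inhibitor and 130.3 FPKM in the control. In 97H it was 36.6 FPKM with the combination, 27.2 FPKM with the XPO1 inhibitor, 49.9 FPKM with the CDK4/6 inhibitor and 23.2 FPKM in the control. The ranges were Huh7 above PLC above 97H, whatever the treatment. The sum includes MT1E, MT1F, MT1G and MT1M, which reached a mean of 1 FPKM through Huh7 alone. The step between Huh7 and the other lines is therefore in part built in, and it is no support beyond the values of MT1X and MT2A.

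The make-up of the sum differed as well, in part because MT1E, MT1F, MT1G and MT1M had to be high in Huh7. MT1X and MT2A together made 69.2% of it with the CDK4/6 inhibitor and 70.4% in the control of Huh7, 99.3% to 99.8% in the PLC libraries and 96.0% to 99.8% in the 97H libraries. MT2A alone made 43.9% with the CDK4/6 inhibitor and 51.5% in the control of Huh7. In PLC it made 69.9% with the combination, 83.2% with the XPO1 inhibitor, 45.2% with the CDK4/6 inhibitor and 55.2% in the control. In 97H MT2A made 85.1% to 94.6%. The length by which the authors divided is not stated, and it matters most for MT2A, whose transcript has 786 bases from the GENCODE 29 start and 401 bases from the RefSeq start. The shares of MT2A depend on that choice, and the order of lines for a single gene does not.

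**Figure D3:**
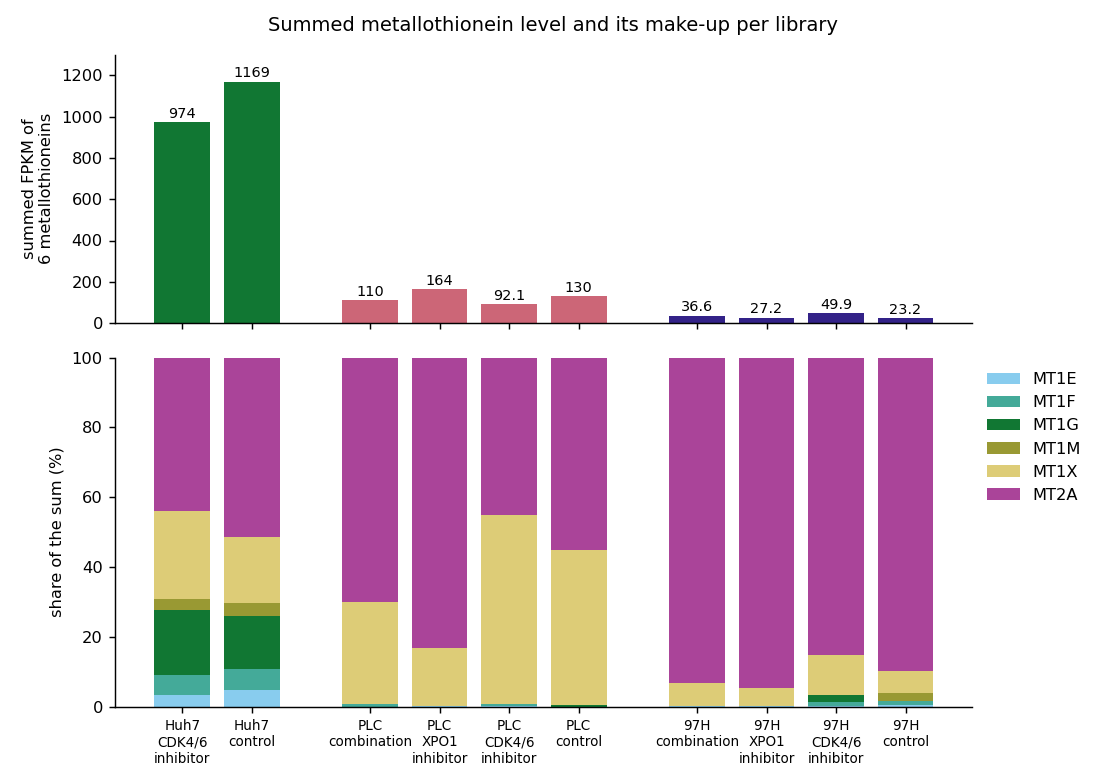
Summed FPKM of MT1E, MT1F, MT1G, MT1M, MT1X and MT2A per library (top, bars from 0) and the share of each gene in that sum in percent (bottom, stacked). The sum is 974 and 1169 FPKM in Huh7, 92.1 to 164 FPKM in PLC and 23.2 to 49.9 FPKM in 97H, and MT2A takes most of it in 97H. MT1E, MT1F, MT1G and MT1M reached a mean of 1 FPKM through Huh7 alone.

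MT1H and MT1A, 2 further metallothionein genes, were also highest in Huh7. Of 11 further family members and pseudogenes listed, 6 are in the table and 1, MT1H, averaged 1 FPKM or more. MT1H had 18.8 FPKM with the CDK4/6 inhibitor and 14.1 FPKM in the control of Huh7 and was listed at 0 in all 8 other libraries. It reached that mean through Huh7 alone and had to be high there, so its place is no support. MT1A lay between 1.78 and 4.58 FPKM in Huh7, was listed at 0 in PLC and reached 1.03 FPKM in 97H. MT1B reached 1.27 FPKM in 1 Huh7 library, MT1HL1 reached 0.520 FPKM in 1 PLC library, and MT3 and MT4, the forms known from brain and squamous epithelium, were listed at 0 in all 10 libraries.

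Genes on either side of the cluster did not show the step. Of 9 listed neighbours, 6 averaged 1 FPKM or more. The summed level of the 9 was 104 to 123 FPKM in Huh7, 137 to 214 FPKM in PLC and 72.6 to 81.4 FPKM in 97H, so Huh7 lay below PLC. OGFOD1, an oxygenase gene, had 13.1 to 13.4 FPKM in Huh7, 7.21 to 21.0 FPKM in PLC and 6.47 to 14.1 FPKM in 97H, and BBS2, a ciliary gene, had 3.67 to 5.32 FPKM, 2.29 to 5.64 FPKM and 2.28 to 4.37 FPKM in those lines. OGFOD1 and BBS2 were chosen after their values were seen.

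Marker genes of liver and of other cell types were described in each line, which does not test the identity of a line. Several liver markers were highest in Huh7, as the metallothioneins were, and others were not. KRT8 and KRT18, keratins of liver epithelium, were above 785 FPKM in all 10 libraries, and the hepatocyte transcription factor gene HNF4A lay between 9.26 and 56.4 FPKM. ALB (albumin) had 1062 to 1261 FPKM in Huh7, 3.29 to 9.74 FPKM in PLC and 2.32 to 15.8 FPKM in 97H, so its step between Huh7 and the others matches that of the metallothioneins in direction. The summed level of 11 liver markers was 9647 to 12448 FPKM in Huh7, 3414 to 6362 FPKM in PLC and 2922 to 6817 FPKM in 97H. In 97H the sum was carried by KRT8 (2113 to 4328 FPKM) and KRT18 (785 to 2429 FPKM), so it hides differences between PLC and 97H. SERPINA1 had 680 to 757 FPKM in Huh7, 662 to 1759 FPKM in PLC and 1.65 to 5.56 FPKM in 97H. APOB had 40.6 to 65.2 FPKM, 28.4 to 70.0 FPKM and 0.244 to 0.421 FPKM in those lines. The part of these line differences in the metallothionein levels was not tested. Of 3 blood markers PTPRC, which defines white blood cells, stayed at or under 0.0226 FPKM, and the summed level of the 3, carried by CD68 and LYZ, was 108 to 146 FPKM in Huh7, 40.5 to 259 FPKM in PLC and 49.0 to 82.1 FPKM in 97H. The 3 endothelial markers summed to 0.639 to 1.38 FPKM in Huh7, 0.0339 to 0.282 FPKM in PLC and 2.43 to 4.26 FPKM in 97H. The 4 fibroblast and stellate cell markers summed to 18.0 to 61.1 FPKM, 0.0948 to 0.336 FPKM and 3.56 to 31.9 FPKM in those lines, and the 2 bile duct markers to 429.9 to 530 FPKM, 0.866 to 1.52 FPKM and 423 to 669 FPKM.

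No member passed the test under any treatment. The combination against control was tested with limma on log2(FPKM + 1) in the 8 PLC and 97H libraries with the line as a block and Benjamini-Hochberg adjustment across all 10477 tested genes. It called 83 genes, 32 higher and 51 lower, or 0.792% of those tested, and 0 of the 7 members. At an unadjusted p under 0.05 there were 1301 genes and again 0 members. MT1E, MT1F, MT1G and MT1M entered the test through their Huh7 levels, and 3 of 7 members averaged 1 FPKM or more in the 8 libraries of this fit, namely MT1X, MT2A and SLC30A1. MT1X had a log2 difference of -0.18 (SE 0.45, adjusted p = 0.930), MT2A one of 0.39 (SE 0.49, adjusted p = 0.840) and SLC30A1 one of 0.14 (SE 0.47, adjusted p = 0.953), beside a median of 0.07 over all tested genes. A p above the threshold does not show that the levels were equal.

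Behind these averages the lines differed in sign for MT1X and SLC30A1. Under the combination MT1X was 32.3 FPKM against 57.7 FPKM in the PLC control, a log2 difference of -0.82, and 2.38 FPKM against 1.46 FPKM in the 97H control, a log2 difference of 0.46. SLC30A1 had the opposite signs, with a log2 difference of 0.68 in PLC and -0.41 in 97H. MT2A was above its control in both lines, by 0.09 in PLC and 0.69 in 97H. None of MT1X, MT2A and SLC30A1 differed by 2-fold or more under the combination in either line, against 19.3% of tested genes in PLC and 12.6% in 97H. The other 4 members lie too close to 0 in these libraries to reach a 2-fold difference on the log2(FPKM + 1) scale. These within-line differences compare 1 library with 1 and carry no test.

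The XPO1 inhibitor against control gave 0 called genes in the same limma fit (0% of those tested), 0 of 7 members, and 258 genes and 0 members at an unadjusted p under 0.05. MT2A was higher in both lines, at 136 FPKM against 71.9 FPKM in the PLC control and 25.7 FPKM against 20.8 FPKM in the 97H control. Its log2 difference was 0.91 in PLC and 0.30 in 97H, and the fitted value 0.60 did not pass (SE 0.49, adjusted p = 0.968). MT1X had a log2 difference of -1.06 in PLC and -0.06 in 97H (fitted -0.56, SE 0.45, adjusted p = 0.968). SLC30A1 had -0.23 in PLC and 0.51 in 97H (fitted 0.14, SE 0.47, adjusted p = 0.975). Of these 3 members MT1X differed by 2-fold or more in PLC, against 22.6% of tested genes, and none did in 97H, against 2.66%. In PLC the ratio of MT2A to MT1X was therefore 5.01 with the XPO1 inhibitor and 1.25 in the control. These levels are as deposited, and the differences of all genes in this PLC comparison followed transcript GC content (Spearman correlation -0.713).

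The CDK4/6 inhibitor against control is the comparison with all 3 lines, fitted over the 10 libraries. It called 0 genes (0% of those tested) and 0 of 7 members, and 922 genes and 0 members had an unadjusted p under 0.05. In Huh7 MT1E, MT1F, MT1M and MT2A were lower with the inhibitor than in the control, by log2 differences of -0.72, -0.39, -0.45 and -0.49, while MT1G, MT1X and SLC30A1 were higher, by 0.03, 0.16 and 0.45. In 97H MT1X had 5.73 FPKM with the inhibitor against 1.46 FPKM in the control, a log2 difference of 1.45, and MT2A had 42.5 FPKM against 20.8 FPKM, a log2 difference of 0.998. In PLC MT2A had 41.6 FPKM with the inhibitor against 71.9 FPKM in the control (-0.77) and MT1X 49.8 FPKM against 57.7 FPKM (-0.21). SLC30A1 differed by 0.28 in PLC and -0.64 in 97H. The metallothionein sum with the inhibitor was 0.833 times the control in Huh7, 0.706 times in PLC and 2.16 times in 97H.

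Fitted over the 3 lines, MT1X differed by 0.47 (limma, SE 0.32, adjusted p = 0.732), MT2A by -0.09 (SE 0.38, adjusted p = 0.972) and SLC30A1 by 0.03 (SE 0.36, adjusted p = 0.989). MT1M, at -0.37, had the smallest adjusted p of the members (SE 0.23, adjusted p = 0.689). MT1E, MT1F and MT1G differed by -0.16, 0.14 and 0.11. MT1M was listed at 0 in 7 of the 8 PLC and 97H libraries, and MT1E, MT1F and MT1G lay near 0 there. The fitted values and standard errors of these genes thus average Huh7 with lines near the floor. Differences of 2-fold or more on the log2(FPKM + 1) scale were found for 0 of the 7 members in Huh7, where all are expressed, against 8.25% of tested genes. Of MT1X, MT2A and SLC30A1, none reached it in PLC, against 23.5%, and MT1X did in 97H, against 6.38%. MT1G differed by 1.06 in 97H, on 1.08 FPKM against 0 FPKM.

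The combination against the CDK4/6 inhibitor, the combination against the XPO1 inhibitor and the interaction of the inhibitors each called 0 genes with limma (0% of those tested) and 0 members. The interaction asks whether the combination differs from the sum of both single effects. At an unadjusted p under 0.05 there were 345, 520 and 60 genes in these comparisons and 0 members in each. Against the CDK4/6 inhibitor, MT1X differed by -0.80 (SE 0.45, adjusted p = 1), MT2A by 0.28 and SLC30A1 by 0.32. Against the XPO1 inhibitor, MT1X differed by 0.38, MT2A by -0.21 and SLC30A1 by 0.00 at the precision printed. The interaction was -0.24 for MT1X, -0.33 for MT2A and 0.18 for SLC30A1 (adjusted p = 0.999949 for each). Comparisons with the control, and those with the combination, share libraries.

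**Figure D4:**
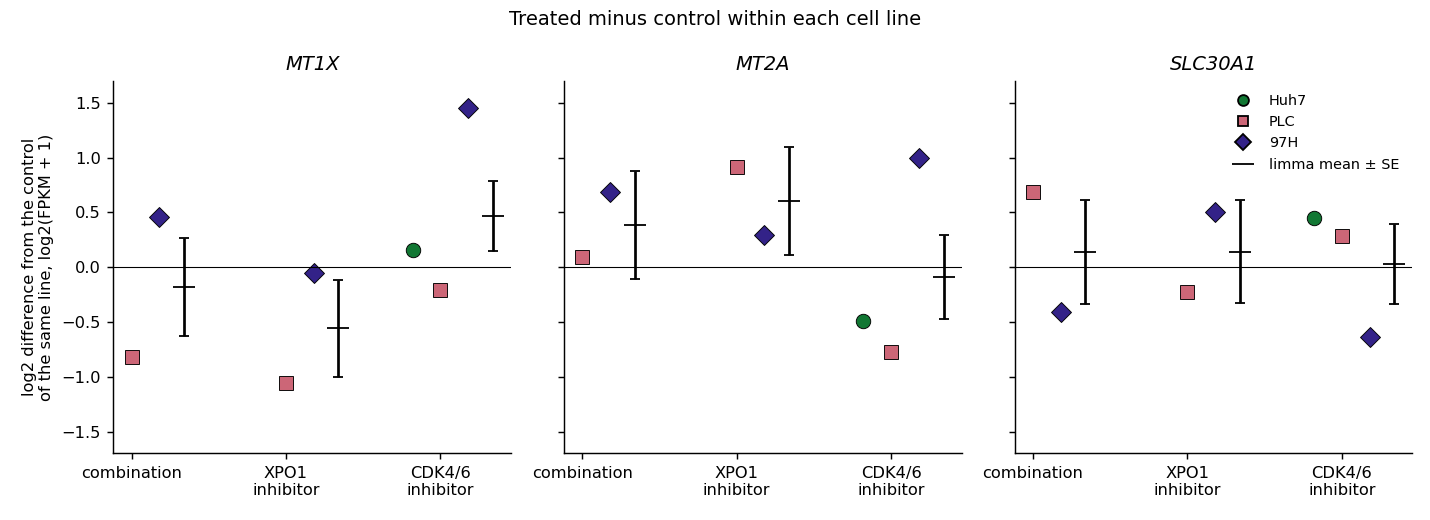
Log2 difference from the control of the same line, on the log2(FPKM + 1) scale, for MT1X, MT2A and SLC30A1 under each treatment, with 1 symbol per line and the fitted limma mean with its standard error as a bar. MT2A and MT1X with the CDK4/6 inhibitor lie above 0 in 97H, at 0.998 and 1.45, and below 0 in PLC, at -0.77 and -0.21, and SLC30A1 takes the opposite signs.

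The within-line differences of all genes followed transcript GC content in opposite directions in PLC and 97H. Across 10431 genes, which are not independent replicates, the Spearman correlation between the log2 difference from control and GC content was -0.289 in PLC and 0.256 in 97H with the combination, -0.713 in PLC and 0.462 in 97H with the XPO1 inhibitor, and 0.176 in Huh7, -0.671 in PLC and 0.723 in 97H with the CDK4/6 inhibitor. With GC and length trends removed, MT1X in 97H with the CDK4/6 inhibitor differed from control by 1.27 and MT2A by 0.47, against 1.45 and 0.998 as deposited. In PLC with the CDK4/6 inhibitor MT2A differed by -0.03 with the trends removed and SLC30A1 by -0.42, so MT2A lay close to its control and SLC30A1 changed sign. With MT2A taken from the RefSeq start, where its transcript has 55.6% GC in place of 63.0%, MT2A differed by -0.56 in PLC and 0.64 in 97H. The opposite directions of SLC30A1 in PLC and 97H with the CDK4/6 inhibitor are thus not found once the trends are removed (-0.42 and -0.17), while the size of those of MT2A depends on the transcript chosen.

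Zinc transporters were described as the rest of the pathway. SLC30A proteins export zinc from the cytosol to the outside or into organelles, and SLC39A proteins bring it in. Of 9 other exporters 4 were tested and 0 were called under the combination, with a median of 0.26 beside 0.07 over all genes. The 3 with the smallest p, all of which load zinc into the early secretory pathway, were SLC30A6 at 0.87 (SE 0.60, adjusted p = 0.636), SLC30A7 at 0.34 and SLC30A5 at -0.15. Of 14 importers 11 were tested and 0 called, with a median of 0.22. SLC39A13, a transporter of the Golgi and endoplasmic reticulum, differed by 0.70 (SE 0.36, adjusted p = 0.475). SLC39A5 differed by -0.41 and SLC39A4, the main importer of dietary zinc, by 0.56. Both lay near the floor in this fit, SLC39A5 at or under 0.896 FPKM in all its libraries and SLC39A4 at or under 0.0383 FPKM in PLC. In the other 5 limma comparisons 0 of the tested transporters were called.

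Several transporters differed between lines, some in the order of the metallothioneins, and those named here were chosen after their values were seen. SLC39A5 had 19.6 to 23.5 FPKM in Huh7, at most 0.896 FPKM in PLC and at most 0.0568 FPKM in 97H. SLC30A10, known as a manganese exporter, had 3.03 to 3.22 FPKM in Huh7, 0.213 to 0.933 FPKM in PLC and at most 0.00905 FPKM in 97H. SLC39A14, which imports manganese, iron and zinc into hepatocytes, had 82.4 to 83.4 FPKM in Huh7, 34.1 to 78.6 FPKM in PLC and 12.6 to 18.7 FPKM in 97H. SLC39A14 thus had the same order of lines as MT1X, but Huh7 and PLC were barely apart. Its lower Huh7 library was 1.05 times the highest of the other libraries, against 3.82 times for MT1X. The share of tested genes with this order was not computed. SLC39A1, an importer of the plasma membrane, was lowest in Huh7, with 75.5 to 97.3 FPKM in Huh7, 140.3 to 193 FPKM in PLC and 183 to 219 FPKM in 97H. SLC39A4 lay at or under 0.0383 FPKM in PLC and reached 4.25 FPKM in Huh7 and 10.5 FPKM in 97H.

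**Figure D5:**
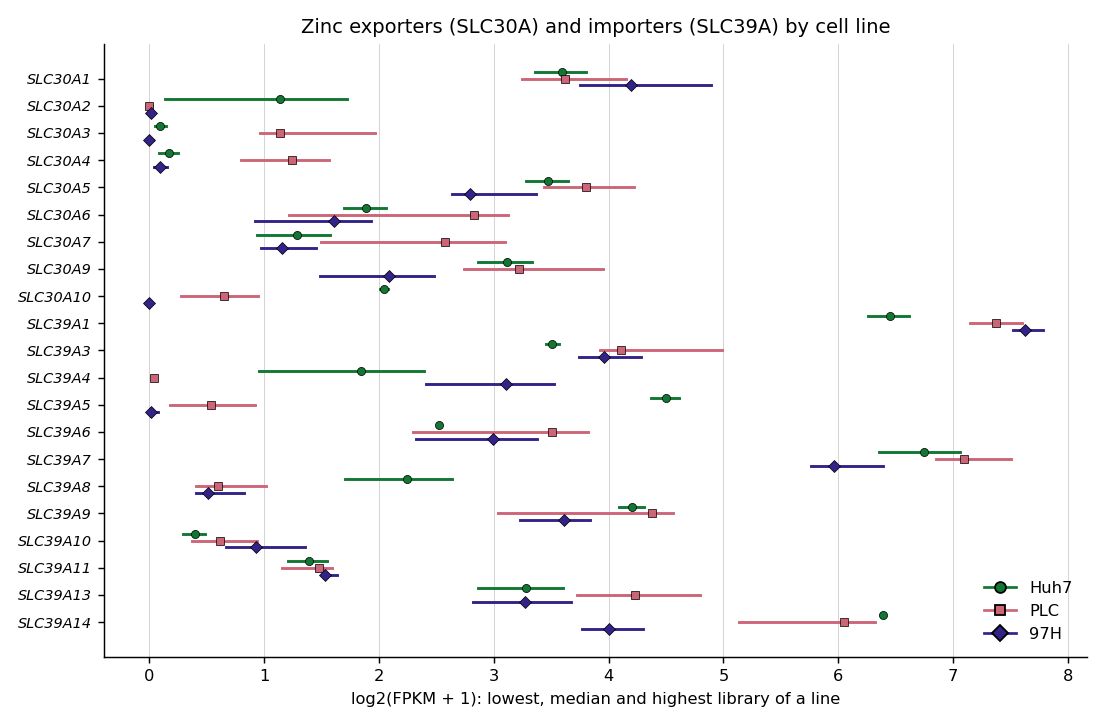
Zinc exporters (SLC30A) and importers (SLC39A) on a log2(FPKM + 1) scale, with the lowest, median and highest library of each line (Huh7 2 libraries, PLC and 97H 4 each). SLC39A5, SLC30A10 and SLC39A14 are highest in Huh7, SLC39A1 is lowest there, and SLC30A1 overlaps across the lines.

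MTF1, the zinc-sensing factor, was expressed at 1.24 to 3.63 FPKM in the 10 libraries, and the lines overlapped. Under the combination it differed by 0.04 (limma, SE 0.44, adjusted p = 0.989). With copper-handling genes it makes a list of 10, all tested and 0 called in any of the 6 comparisons, with a median of 0.25 under the combination. The copper transporter genes SLC31A2 and SLC31A1 differed by 0.59 and 0.73, and CP (ceruloplasmin, the copper carrier of plasma) by 1.13, and none passed.

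Oxidative stress and glucocorticoids are other inducers of metallothionein, and their part in the levels seen here was not tested. Of 10 genes of metal and oxidative stress, all were tested and 0 called in any comparison. Their summed level was 277 to 325 FPKM in Huh7, 223 to 488 FPKM in PLC and 1803 to 2071 FPKM in 97H. In 97H it was carried mainly by NQO1, TXNRD1, SRXN1 and HMOX1. HMOX1 (heme oxygenase, which heavy metals induce) had 27.2 to 45.6 FPKM in Huh7, 79.7 to 251 FPKM in PLC and 239 to 592 FPKM in 97H. Under the combination HMOX1 differed by 1.06 (limma, SE 0.34, adjusted p = 0.235), HSPA1A (a heat shock protein) by 0.62 and TXNRD1 (thioredoxin reductase) by 1.11, with a list median of 0.23. The summed level of 10 glucocorticoid response genes was 227 to 289 FPKM in Huh7, 169 to 323 FPKM in PLC and 99.6 to 144 FPKM in 97H, so Huh7 and PLC overlapped. The genes of this list did not share 1 order of lines. SGK1 had 28.4 to 29.9 FPKM in Huh7, 7.28 to 25.6 FPKM in PLC and 1.08 to 3.77 FPKM in 97H. ERRFI1 had 27.6 to 44.3 FPKM, 7.63 to 26.8 FPKM and 32.9 to 66.1 FPKM in those lines. Of the 10, 7 were tested and 0 called in any comparison. DUSP1, a phosphatase of MAP kinases, differed by 1.60 under the combination (SE 0.32, adjusted p = 0.0738), TSC22D3 by 1.30 and SGK1 by 1.17. The list median was 1.09 beside 0.07 over all genes, with 5 genes above 0 and 2 below. The neighbours of the cluster had 0 of 6 called, with HERPUD1, an endoplasmic reticulum stress gene, at 1.17 (SE 0.28, adjusted p = 0.129), NUDT21 at -0.90 and NUP93 at -0.65, and a median of 0.43.

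The members measured in every line did not share 1 pattern within lines. With the mean of each line removed, over the 10 libraries, Pearson r was 0.01 between MT1X and MT2A, -0.50 between MT1X and SLC30A1, and -0.61 between MT2A and SLC30A1. These are descriptions of libraries that share lines and depth. Among the genes whose line-centred pattern was most like the mean of the 6 metallothioneins, 4 of which lay near 0 in PLC and 97H, were APEX2 (r = 0.92), NIPSNAP1 (0.88), RAB5IF (0.87) and FADS2 (0.87). Those most like SLC30A1 were KIAA0100 (0.89), FBXO42 (0.88), IRS1 (0.87), FKBP11 (0.87) and CYP1B1 (0.87).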

How the data were processed

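Trizol extraction and a TruSeq kit were used, per the labels' protocols. Per the submitters' processing notes, CASAVA 1.8.2, STAR 2.4.2g1, featureCounts of Subread and GRCh38 were used. The authors deposited FPKM for 20030 genes in 10 libraries; how FPKM was derived, the transcript lengths and any scaling between libraries are not given in those notes. In 27 entries a symbol turned into a date was restored from its accession. Whole reads could not be recovered, so no count model was run. Low values placed relative depth at 0.863 to 1.14 of the PLC combination library, resting on 0.644% to 1.91% of low genes. No 2 libraries were identical, and 12 housekeeping genes were never at 0.

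Tests were two-sided and used limma 3.58.1 (R 4.3.3; trended eBayes) on log2(FPKM + 1) for the 10477 genes averaging 1 FPKM or more in the 10 libraries, blocking on cell line. Adding 1 FPKM shrinks differences of low genes. The CDK4/6 inhibitor against control used 10 libraries (4 residual degrees of freedom) and the other comparisons the 8 of PLC and 97H (3). Pairing is by line, as the labels give it. Benjamini-Hochberg adjustment covered all tested genes, and a gene was called at an adjusted p under 0.05. The standard error pools the spread of treatment effects between lines. Within-line differences have no test.

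The members and lists were chosen with earlier results of these data known. All 7 members are named; from each further list up to 3 tested genes with the smallest unadjusted p under the combination are named, and the 5 genes with the highest line-centred Pearson r to the metallothionein mean and to SLC30A1. The result of 1 of these genes is not reported here. Promoters are from RefSeq (GRCh38.p14), with 3 of 7 members matched; annotation, transcript GC content and length are from GENCODE 29, for 19337 entries. Python 3.11.15, pandas 2.3.3 and numpy 2.4.6 were used. Alternatives covered the pseudocount (0.1), filters, scalings, GC and length trends, the block, the prior variance, the libraries fitted and leaving out each library.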

Additional observations from a re-analysis of the deposited data

Results flagged for a closer look

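Among the members, within-line differences from control had opposite signs between cell lines for 6 combinations of gene, treatment and lines. The rule asked for at least 0.25 on the log2 scale each way. Each case rests on 1 library per line and treatment, and the difference between lines was not tested. The rule was applied to the members only, so no share over all tested genes stands beside this count. With the CDK4/6 inhibitor the differences of all genes followed transcript GC content in opposite directions in PLC (-0.671) and 97H (0.723). Opposite signs are thus not shown to be particular to these genes. With the combination, MT1X differed from control by -0.82 in PLC and 0.46 in 97H, a gap of -1.28 (PLC minus 97H), and SLC30A1 by 0.68 and -0.41, a gap of 1.09. With the CDK4/6 inhibitor, MT2A differed from control by -0.49 in Huh7 and 0.998 in 97H, a gap of -1.49 (Huh7 minus 97H), and by -0.77 in PLC, a gap of -1.77 (PLC minus 97H). SLC30A1 with the same inhibitor differed by 0.45 in Huh7 and -0.64 in 97H, a gap of 1.08, and by 0.28 in PLC, a gap of 0.92 (PLC minus 97H). With GC content and length trends removed, SLC30A1 with the CDK4/6 inhibitor was 0.58 in Huh7, -0.42 in PLC and -0.17 in 97H, so PLC and 97H then had the same sign. MT2A was then -0.39 in Huh7, -0.03 in PLC and 0.47 in 97H, or -0.18, -0.56 and 0.64 with its transcript taken from the RefSeq start. With the combination the signs stayed opposite, at -0.62 in PLC and 0.34 in 97H for MT1X and 0.53 and -0.30 for SLC30A1.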

How the results depend on the processing

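The count of members called was 0 in all 6 comparisons under every alternative fitted, and the smallest adjusted p of a named member over 403 combinations of member and setting was 0.132, for MT1X under the XPO1 inhibitor with 1 library left out. With no replicate block, 0 members were called and the count over all genes for the combination against control was 0, against 83 with it. That count was also 1 without a filter on low genes, 27 with a single prior variance, 140 with quantile normalization, 261 with all 10 libraries and 592 with GC content and length trends removed. Leaving out a library of PLC gave 0 for its control, 0 for its combination and 158 for its CDK4/6 inhibitor library, and leaving out one of 97H gave 166 for its control, 2 for its combination and 184 for its CDK4/6 inhibitor library. Over all genes, the combination against the CDK4/6 inhibitor reached at most 49 and the combination against the XPO1 inhibitor at most 54, both with the trends removed, and the XPO1 inhibitor against control at most 1. The count of members with both Huh7 libraries above the other 8 stayed at 6 under each scaling (4 of them pass the filter through Huh7), and that of members with PLC above 97H was 2 in place of 1 with the trends removed (added after seeing the data).

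Signs of small differences that passed no test were not stable, and the cause was not tested. For the CDK4/6 inhibitor against control, quantile normalization gave 0.023 for MT2A and -0.020 for SLC30A1, the trends removed gave 0.018 and -0.0052, and the 8 libraries of PLC and 97H gave 0.11 and -0.18 and 0.12 for MT1E, which was 0.24 with a pseudocount of 0.1. SLC30A1 was -0.047 under the XPO1 inhibitor with the trends removed. For the combination against the XPO1 inhibitor SLC30A1 was 0.013 with a pseudocount of 0.1, 0.053 with median ratio scaling, 0.018 with quantile normalization and 0.16 with the trends removed. Its interaction was -0.032 with all 10 libraries.

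Leaving out each library, which leaves 1 treatment with a lone sample assumed to vary like the others, gave these ranges where a sign turned. Under the combination, MT1X ranged from -0.84 to 0.48 (above 0 when either PLC library of this contrast was left out) and SLC30A1 from -0.37 to 0.65. Under the XPO1 inhibitor MT1X ranged from -1.21 to 0.10, MT2A from -0.10 to 1.31 and SLC30A1 from -0.56 to 0.84. Under the CDK4/6 inhibitor MT1E ranged from -0.31 to 0.12, MT1F from -0.14 to 0.41, MT1G from -0.26 to 0.45, MT2A from -0.65 to 0.32 and SLC30A1 from -0.18 to 0.32. For the combination against the CDK4/6 inhibitor MT2A ranged from -0.61 to 1.17 and SLC30A1 from -0.20 to 0.83, and against the XPO1 inhibitor MT2A from -0.92 to 0.49 and SLC30A1 from -0.70 to 0.70. The interaction ranged from -0.90 to 0.41 for MT1X, -1.22 to 0.56 for MT2A and -0.52 to 0.88 for SLC30A1. A filter over the libraries of the fit is the same as the one used for the CDK4/6 inhibitor and gave no separate value there. Levels under 1 FPKM are limited by a depth that is not known.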
